A study of Mus musculus with 48 samples.

Results

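The genes described here build and police the folding compartment of the secretory pathway. They are 40 mouse genes of endoplasmic reticulum (ER) stress and protein folding, taken by symbol from a table of 55401 gene IDs, and 39 of them passed a filter on low counts, among 15646 genes that did so in all. They were kept in 5 groups by role: 6 stress sensors and transcription factors, 16 chaperones and folding enzymes that the factors ATF6 and XBP1 are known to switch on, 8 genes of ER-associated degradation, 3 of the translocon, and 7 targets of the factor ATF4 downstream of the kinase PERK. The member left out by the filter was Chac1, a glutathione-degrading enzyme and ATF4 target, with 0 to 9 counts in a knockout library and 0 to 15 in a control library. Ddit3 had a second gene ID that held 0 counts over all libraries. Each member is described in whole jejunum (the stretch of small intestine between duodenum and ileum) of knockout mice (labelled Bmal1iec-/-, meaning loss of Bmal1 in intestinal epithelial cells) and control mice (labelled bmal1fl/fl, with Bmal1 alleles that can be recombined). Tissue was taken every 4 h from CT1 to CT21 in constant darkness, 6 times in all, CT being circadian time, in hours of the rhythm that the animals keep by themselves. Knockout had 23 libraries, 3 at CT9 and 4 at each other time, and control had 24, 4 at each time. The labels give no age, sex, diet or recombinase driver, and nothing in them ties each library to a separate animal, so a p-value here speaks of the spread among libraries, which may be technical.

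Proteins that enter the ER are threaded through the translocon, folded by chaperones and disulfide isomerases, and returned to the cytosol for destruction when folding fails. When unfolded protein accumulates, the sensors IRE1, ATF6 and PERK start the unfolded protein response: IRE1 splices Xbp1 mRNA, ATF6 is cut to release a transcription factor, and PERK slows translation while favouring ATF4. XBP1 and ATF6 then raise chaperones and degradation genes, and ATF4 raises genes of amino acid supply and of the integrated stress response. In small intestine this machinery is best known from its secretory cells, above all Paneth and goblet cells. Counts per gene do not measure splicing, cleavage or phosphorylation of the sensors.

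The promoters of these genes carry short elements through which the response is known to act, and they are shown here because the genes differed in them by role. RefSeq windows (GRCm38.p6) from 250 bases before to 50 bases after the start were matched for 33 members and for 26994 genes. The ER stress element was searched as CCAAT, any 9 bases, then CCACG, on either strand. It was present in 9 of the 33 members and in 0.137% of all genes with a window. Of the 13 chaperones with a window 7 had it, and the other two members were the ligase Syvn1 and the degradation gene Derl3. The sites follow in the orientation of the motif, with the letters of the motif in capitals and 4 bases on either side.
Hspa5: ttcaCCAATcggaggcctCCACGacgg
Creld2: tggaCCAATtgaggctcgCCACGagaa
Hsp90b1, nearer the start: ctcaCCAATcgtgcctcaCCACGcact
Hsp90b1, farther from the start: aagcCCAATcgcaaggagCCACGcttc
Calr: tgggCCAATgagggtcgaCCACGcgtt
Canx: ttgaCCAATcaccacgctCCACGaaga
Pdia6: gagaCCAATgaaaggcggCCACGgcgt
Dnajc3: acaaCCAATcagcgccaaCCACGaccc
Syvn1: gcaaCCAATcggcggtagCCACGggaa
Derl3: ctagCCAATggggaagtcCCACGgtag
Either end alone was common: CCAAT was in all 13 chaperone windows and in 41% of all genes, and CCACG was in 12 of the 13 and in 35.5% of all genes.

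A shorter form, the ER stress element II (ATTGG, 1 base, CCACG), was found in Herpud1 and in the co-chaperone Dnajb11, and in 0.0445% of all genes. The C/EBP-ATF response element, through which ATF4 is known to act and searched as TGATGNAA on either strand, was in 4 of the 7 ATF4 and PERK targets, in Herpud1, in 0 of the 13 chaperones and in 4.51% of all genes. The printed sites are in the orientation of the motif with 8 bases on either side, and that of Trib3 lies 15 to 22 bases after the start.
Trib3: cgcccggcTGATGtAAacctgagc
Atf3: ggacttggTGATGcAAgtgcgaga
Asns: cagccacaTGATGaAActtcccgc
Chac1: ggcaggagTGATGcAAcggcaggg
Herpud1: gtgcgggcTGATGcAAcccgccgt
Herpud1 thus held motifs of both arms. The 200 bases before its start (chr8:94386229-94386428, plus strand) are printed with both in capitals, the C/EBP-ATF response element first, on the minus strand, and the ER stress element II second.
Herpud1: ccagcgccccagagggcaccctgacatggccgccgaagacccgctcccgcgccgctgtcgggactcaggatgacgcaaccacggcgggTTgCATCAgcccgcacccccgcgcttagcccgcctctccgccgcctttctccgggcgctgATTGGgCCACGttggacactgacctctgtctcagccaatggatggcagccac
Those of the chaperone Creld2 (chr15:88819446-88819645, plus strand) hold the ER stress element on the minus strand.
Creld2: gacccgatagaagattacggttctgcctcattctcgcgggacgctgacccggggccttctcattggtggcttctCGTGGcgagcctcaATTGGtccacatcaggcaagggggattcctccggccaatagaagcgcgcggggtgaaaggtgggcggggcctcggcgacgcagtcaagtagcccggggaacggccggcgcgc
The canonical E-box CACGTG, the letters that BMAL1 with CLOCK is known to bind, was in the windows of Dnajb9, Calr, Derl3 and Ssr1, and in 8.09% of all genes. The core of the unfolded protein response element (TGACGTGG) was in 0 of the 33 members and in 0.715% of all genes, and the cAMP response element (TGACGTCA) was in Ppp1r15a and in 2.03% of all genes. These matches describe letters in the window and were not tested against binding.

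Total counts were 4.79 to 6.91 M (median 5.45 M) in knockout libraries and 4.34 to 6.06 M (median 5.35 M) in control libraries. Levels are CPM, counts per M counts of the tested genes after scaling between libraries. Arntl, the gene symbol of Bmal1, stood between 18.4 and 37.0 CPM in all knockout libraries, whereas it spanned 8.48 to 89.4 CPM over the day in control. In 5 libraries the genes departed unusually far from their usual level (interquartile range of relative log expression 0.589 to 1.10, against at most 0.469 in the others): knockout CT1 replicates 1, 2 and 3, knockout CT21 replicate 4 and control CT21 replicate 1. Calls over all times, at CT1 and for rhythm are also given without these 5. Enterocyte markers summed to 28402 to 52848 CPM in knockout (median 34621) and 27086 to 48981 CPM in control (median 38407). Of 8 pancreatic acinar markers only 2 passed the filter, Clps and Cela1, and these summed to 78.4 to 232 CPM in knockout (median 106) and 71.9 to 184 CPM in control (median 105). Most of that sum was Clps, with a mean of 114 CPM in knockout and 99.9 CPM in control, against 6.80 and 7.30 CPM for Cela1. The highest knockout enterocyte sum and both highest acinar sums were in libraries among the 5. In whole tissue, fewer cells of a type and less RNA per cell cannot be told apart.

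Over the whole day, 1 of the 39 tested members rose in the knockout, 3 fell and 35 did not pass (edgeR quasi-likelihood test, adjusted p under 0.05 over all tested genes). P4hb, which encodes a protein disulfide isomerase, rose. The ER membrane protein Herpud1, the retrotranslocation factor Derl3 and the pseudokinase Trib3 fell. Of all tested genes 12.4% rose and 11.3% fell, so fewer members than that share were called. The median log2 fold change, knockout minus control, was −0.01 over the members and −0.01 over all genes. By role the members called were 0 of 6 sensors and factors, 1 of 16 chaperones, 2 of 8 degradation genes, 0 of 3 translocon genes and 1 of 6 tested ATF4 and PERK targets. When the 5 libraries were left out the same 3 fell (11.2% of 16463 genes) and 2 rose (10.4%), P4hb and the sensor Ern1. A second member also rose when knockout CT1 replicate 3 or knockout CT21 replicate 4 alone was left out.

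**Figure D1:**
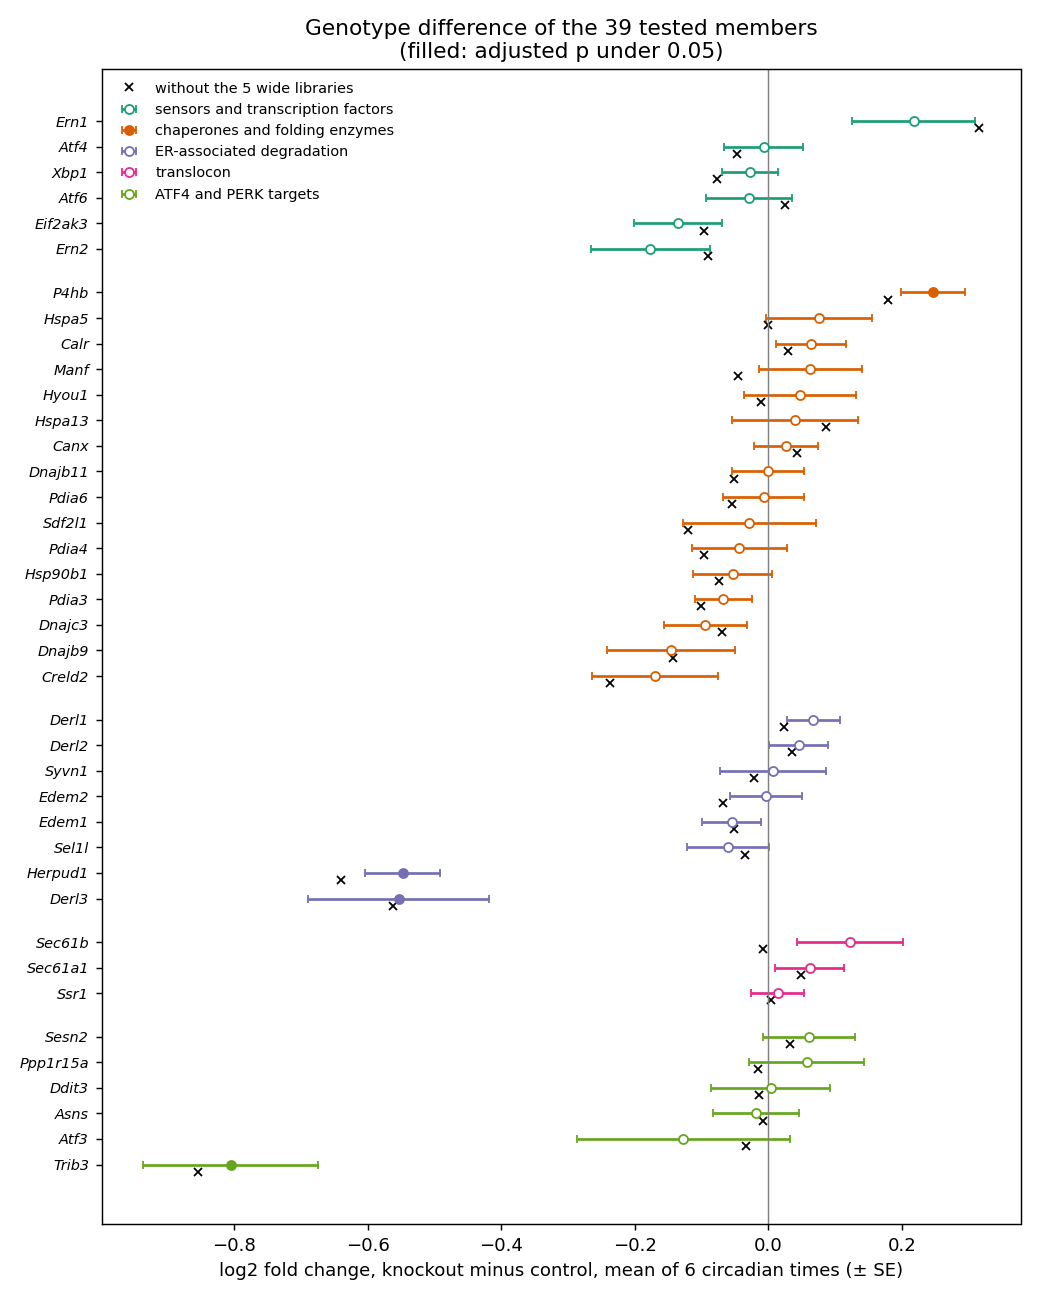
Log2 fold change over all times (knockout minus control, x axis, ± SE) of the 39 tested members, by role from top to bottom. Filled points passed (P4hb, Herpud1, Derl3 and Trib3) and crosses give the value without the 5 libraries, where Ern1 moves to 0.32.

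Herpud1 (ENSMUSG00000031770.16, chromosome 8, positions 94386438 to 94395377, plus strand, mm10) recruits the degradation complex to misfolded proteins. At CT1 the genotypes overlapped, with 104, 77.6, 96.4 and 64.1 CPM in knockout and 66.1, 76.1, 76.6 and 97.0 CPM in control. At CT5 Herpud1 was 67.2, 72.0, 77.7 and 69.7 CPM in knockout and 104, 93.0, 118 and 112 CPM in control. Every knockout library was then below every control library. The gap was widest at CT9, with 74.4, 71.2 and 68.6 CPM in the 3 knockout libraries, against 143, 188, 149 and 181 CPM in the 4 control libraries. At CT13 it was 142, 109, 118 and 129 CPM in knockout and 203, 207, 163 and 239 CPM in control. The genotypes stayed apart at both times, and so they did at CT17, with 94.0, 74.2, 90.1 and 105 CPM in knockout and 138, 141, 133 and 119 CPM in control. At CT21 they overlapped in part, with 65.9, 76.1, 70.8 and 82.9 CPM in knockout and 85.7, 101, 79.8 and 113 CPM in control.

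The log2 fold change of Herpud1 was −0.58 at CT5 (SE 0.14, edgeR adjusted p = 0.021) and −1.21 at CT9 (SE 0.15, 1.7e-07). It was −0.70 at CT13 (SE 0.13, 0.00046) and −0.55 at CT17 (SE 0.14, 0.016). It did not pass at CT1 (0.12, SE 0.14, 0.567) or CT21 (−0.36, SE 0.14, 0.254). The direction at CT1 turned without the 5 libraries (−0.34, SE 0.19, adjusted p = 0.495), which left in knockout CT1 the lowest library, at 64.1 CPM. The mean over times was −0.55 (SE 0.06, edgeR adjusted p = 3.0e-10). The calls at CT5 and CT17 were lost when any 1 of 5 and any 1 of 3 libraries was left out (highest adjusted p 0.073 and 0.113), namely knockout CT5 replicates 1, 2 and 4, control CT5 replicates 3 and 4, knockout CT17 replicates 2 and 3, and control CT17 replicate 2. Those at CT9 and CT13 held in all 47 such fits.

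Trib3 (ENSMUSG00000032715.9, chromosome 2, positions 152337422 to 152344032, minus strand) encodes a pseudokinase that ATF4 and CHOP induce and that restrains AKT signalling. At CT5 it was 4.10, 4.90, 6.22 and 4.95 CPM in knockout and 12.4, 9.46, 11.2 and 13.1 CPM in control. At CT9 it was 5.19, 3.56 and 4.07 CPM in knockout, against 21.1, 17.8, 14.1 and 9.76 CPM in control. At CT13 it was 4.24, 8.03, 4.87 and 4.99 CPM in knockout and 11.6, 16.3, 12.5 and 8.86 CPM in control. The groups of Trib3 did not overlap at these 3 times. At CT1 (5.33 to 7.95 CPM in knockout, 2.61 to 9.71 CPM in control), CT17 (3.67 to 6.40 CPM in knockout, 5.30 to 12.2 CPM in control) and CT21 (3.67 to 10.8 CPM in knockout, 3.81 to 9.90 CPM in control) they did.

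The log2 fold change of Trib3 was −1.19 at CT5 (SE 0.31, edgeR adjusted p = 0.042), −1.88 at CT9 (SE 0.33, 0.00019) and −1.17 at CT13 (SE 0.30, 0.016). Over all times it was −0.80 (SE 0.13, edgeR adjusted p = 6.5e-06). Single libraries decided the calls at CT5, lost without any 1 of the 4 knockout CT5 libraries or of control CT5 replicates 1, 3 and 4 (highest adjusted p 0.139), and at CT13, lost without knockout CT13 replicate 1, 3 or 4 or control CT13 replicate 2 (highest 0.099). With 2015 counts over all 47 libraries, Trib3 was among the members with the fewest counts, as was Derl3 (1178 counts).

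Derl3 (chromosome 10, positions 75893413 to 75895941, plus strand), a channel component of degradation that is known for its level in secretory cells, was 1.72 to 6.96 CPM in knockout libraries (median 3.57) and 2.08 to 9.44 CPM in control libraries (median 5.03). Its group mean was lower in knockout at 5 of 6 times, and the libraries of the 2 genotypes overlapped over the day. At CT9 the 3 knockout libraries, at 3.29, 2.67 and 2.59 CPM, were below the 4 control libraries, at 7.09, 4.07, 7.19 and 5.56 CPM. The log2 fold change of Derl3 over all times was −0.55 (SE 0.14, edgeR adjusted p = 0.0019), and it passed at no single time. Plasma cells make much secretory protein. Of 9 tested plasma cell markers 6 fell too (adjusted p under 0.05), where 11.3% of all genes did. They were Jchain (−0.48), Irf4 (−0.58), Pou2af1 (−0.80), Cd79a (−1.01), Prdm1 (−0.37) and Igha (−0.46). The other 3 did not pass, among them Sdc1, which was higher in knockout at 5 of 6 times. At CT1 the median log2 fold change of the 9 markers was 0.11, and 1 rose and 1 fell. The marker list summed to 1641 to 6164 CPM in knockout (median 2833) and 2747 to 6855 CPM in control (median 4020). Paneth cell markers summed to 9710 to 27538 CPM in knockout (median 14478) and 11308 to 23332 CPM in control (median 15455). Both highest values were in libraries among the 5, knockout CT1 replicate 2 and control CT21 replicate 1. Of 8 Paneth cell markers 1 rose and 2 fell. Goblet cell markers summed to 5924 to 14485 CPM in knockout (median 9090) and 5815 to 12723 CPM in control (median 8883). Their highest values were in knockout CT21 replicate 4 and control CT21 replicate 1, also among the 5. Of 10 goblet cell markers 1 rose and 0 fell. The part of any of these cell types in the value of Derl3 was not tested.

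P4hb (chromosome 11, positions 120560298 to 120573253, minus strand) was by far the most abundant member per length, at 1032 CPM per kb of exon in knockout and 866 CPM per kb in control, followed by the lectin chaperone Calr, at 238 CPM per kb in knockout and 227 CPM per kb in control. Libraries ranged from 2377 to 4670 CPM in knockout (median 2898) and from 2155 to 2845 CPM in control (median 2459). Its group mean was higher in knockout at all 6 times. At CT1 the 4 knockout libraries had 4670, 3254, 3403 and 2898 CPM, above the 4 control libraries at 2155, 2436, 2409 and 2472 CPM. The log2 fold change of P4hb over all times was 0.25 (SE 0.05, edgeR adjusted p = 9.5e-05). It was 0.18 (SE 0.04, adjusted p = 0.00030) without the 5 libraries.

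**Figure D2:**
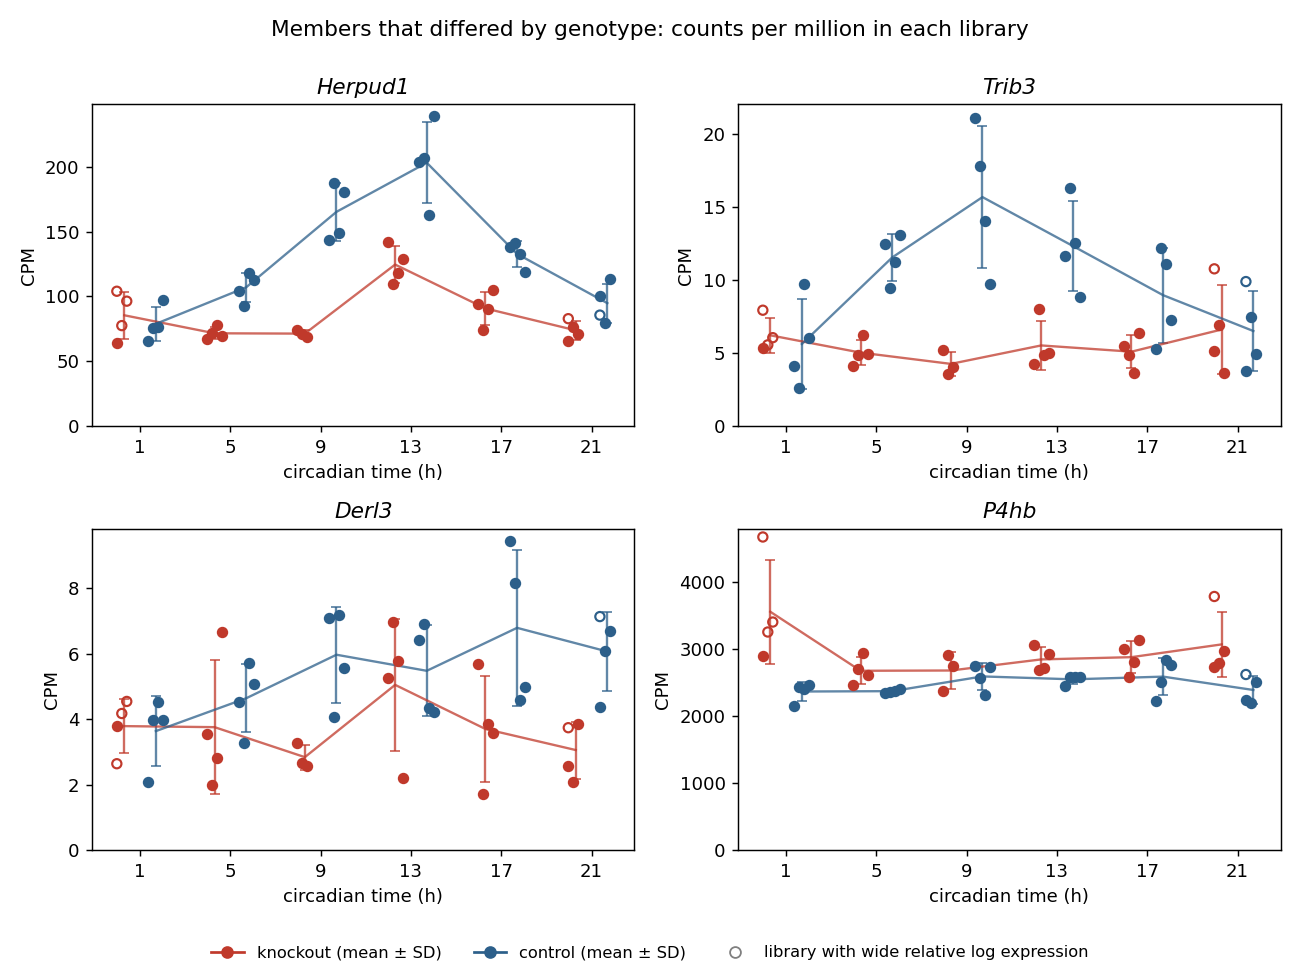
CPM (y axis) of Herpud1, Trib3, Derl3 and P4hb in each library by circadian time (x axis), knockout in red left of control in blue, with group mean ± SD. Herpud1 and Trib3 separate at CT5, CT9 and CT13 and overlap at CT1, and open points are the 5 libraries with wide relative log expression.

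The next question was whether the members had a daily course in each genotype. With a cosine of 24 h, 9 of 16 chaperones and folding enzymes were rhythmic in knockout and 12 in control, all 9 being among the 12. Over all members, 13 were rhythmic in knockout and 17 in control, against 15.0% and 21.1% of all tested genes, and 11 were rhythmic in both. Only 2 members passed the test of a difference in rhythm, Herpud1 and Trib3, where 1.57% of all genes did. With the 5 libraries left out 17 members were rhythmic in knockout (10.9% of genes) and 23 in control (29.6%), and 2 differed (1.58%), Trib3 and Ern1. The knockout count was 8 without knockout CT5 replicate 1, and 8 without knockout CT9 replicate 2.

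Hspa5 (BiP, chromosome 2, positions 34771970 to 34777547, plus strand), the Hsp70 of the ER lumen and the protein that holds the sensors inactive, shows the course. Its group mean in knockout was highest at CT13, at 933 ± 170 CPM, and lowest at CT5, at 504 ± 104 CPM (SD, n = 4 each). In control it was highest at CT13 as well, at 1027 ± 171 CPM, and lowest at CT1, at 483 ± 81.3 CPM (SD, n = 4 each). The highest group mean was 1.85 times the lowest in knockout and 2.13 times in control. The fitted amplitude of Hspa5, the distance from the middle to the peak on the log2 scale, was 0.29 in knockout (SE 0.09, edgeR adjusted p = 0.040, peak CT16.3) and 0.52 in control (SE 0.08, 3.0e-05, peak CT14.0). With the 5 libraries left out, it was 0.44 in knockout (SE 0.09, adjusted p = 0.0043, peak CT15.1) and 0.52 in control (SE 0.08, 2.3e-05, peak CT14.0).

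The widest swings among the chaperones were those of Creld2 and Sdf2l1. Creld2, a disulfide isomerase-like protein, was 23.9, 31.6, 26.6 and 26.9 CPM in knockout at CT5 and 40.7, 24.6, 35.7 and 24.9 CPM in control at CT5. At CT13 Creld2 was 80.9, 53.4, 46.2 and 63.1 CPM in knockout and 76.4, 99.9, 51.9 and 81.7 CPM in control. The CT13 libraries thus stood above all CT5 libraries within each genotype. Its amplitude was 0.38 in knockout (SE 0.11, edgeR adjusted p = 0.035, peak CT16.6) and 0.67 in control (SE 0.11, 2.8e-05, peak CT14.5). Leaving out knockout CT5 replicate 1, 3 or 4 or knockout CT9 replicate 2 ended the call of a knockout rhythm for Creld2 (highest adjusted p 0.072). Its amplitude without the 5 libraries was 0.56 in knockout (SE 0.11, adjusted p = 0.0034) and 0.67 in control (SE 0.10, 8.6e-06). Sdf2l1, a partner of BiP that keeps clients soluble, had amplitudes of 0.45 in knockout (SE 0.12, edgeR adjusted p = 0.019, peak CT18.1) and 0.60 in control (SE 0.11, 0.00035, peak CT15.7), and of 0.57 in knockout and 0.59 in control without the 5 libraries.

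**Figure D3:**
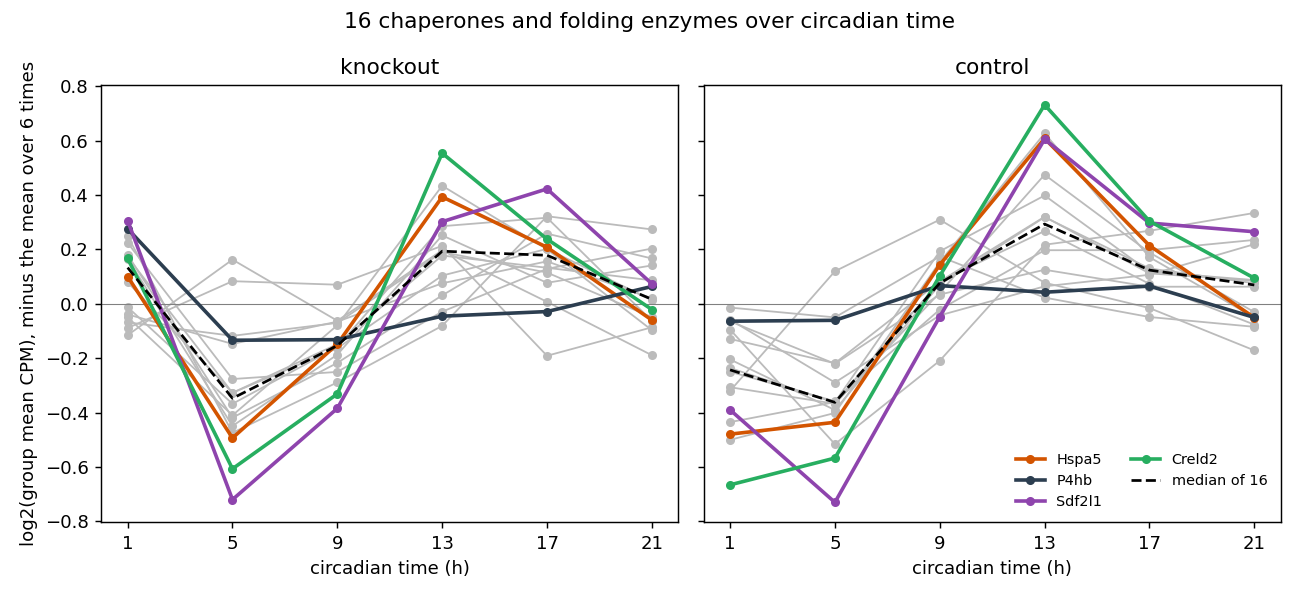
Log2 of the group mean CPM, minus the mean over 6 times (y axis), of the 16 chaperones and folding enzymes by circadian time (x axis), knockout left and control right. Most lines are lowest at CT5 or CT1 and highest at CT13 or CT17, and P4hb stays nearly flat in control.

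In knockout the 9 rhythmic chaperones peaked between CT15.1 and CT20.4 (median CT17.7). In control the 12 rhythmic ones peaked between CT13.7 and CT17.8 (median CT14.7), after the start of subjective night. All 9 had a later fitted peak in knockout, by 1.29 to 2.87 h (median 2.26 h). The degradation genes Herpud1 and Syvn1, also rhythmic in both genotypes, peaked later in knockout as well, by 2.08 and 2.84 h. The shift over all genes rhythmic in both was not taken, so a delay particular to chaperones is not shown. The shift was 0.656 to 1.64 h (median 1.07 h) for the same 9 without the 5 libraries, of which 3 are knockout CT1 libraries. These genes share their libraries, and 0 of the 16 passed the edgeR test of a difference in rhythm (9 at an unadjusted p under 0.05, and 0 without the 5 libraries), so the shift is given as a description. The amplitude was lower in knockout for 13 of the 16 chaperones, with a median of 0.26 in knockout and 0.31 in control. Over all tested genes it was lower in knockout for 7780 of 15646, with a median of 0.18 in knockout and 0.17 in control. For 12 of the 16 it was lower in knockout without the 5 libraries, and the medians were 0.29 in knockout and 0.30 in control. The share over all genes was not taken without the 5 libraries, so this count has no matching background.

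In some groups the same library was highest or lowest for nearly all of the 16 chaperones. Of the widest cases 4 are given first, chosen after their values were seen. Control CT9 replicate 4 was the highest of its group for 15 of the 16, and control CT1 replicate 4 for 15. Knockout CT9 replicate 2 was the lowest of its 3 for 15 of the 16, and control CT1 replicate 1 the lowest of its group for 14. For Hspa5, control CT9 replicate 4 had 1220 CPM and the other 3 control CT9 libraries had 538 to 652 CPM. None of these 4 is among the 5 libraries above. Control CT17 replicate 1, also not among the 5, was the highest of its group for 14 of the 16 and the lowest for 1. Other groups were mixed: in knockout CT17 replicates 1, 2, 3 and 4 were the highest for 5, 3, 7 and 1 of the 16, and in control CT21 for 6, 5, 4 and 1. Knockout CT21 replicate 4, one of the 5, was the highest of its group for 8 and the lowest for 6.

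**Figure D4:**
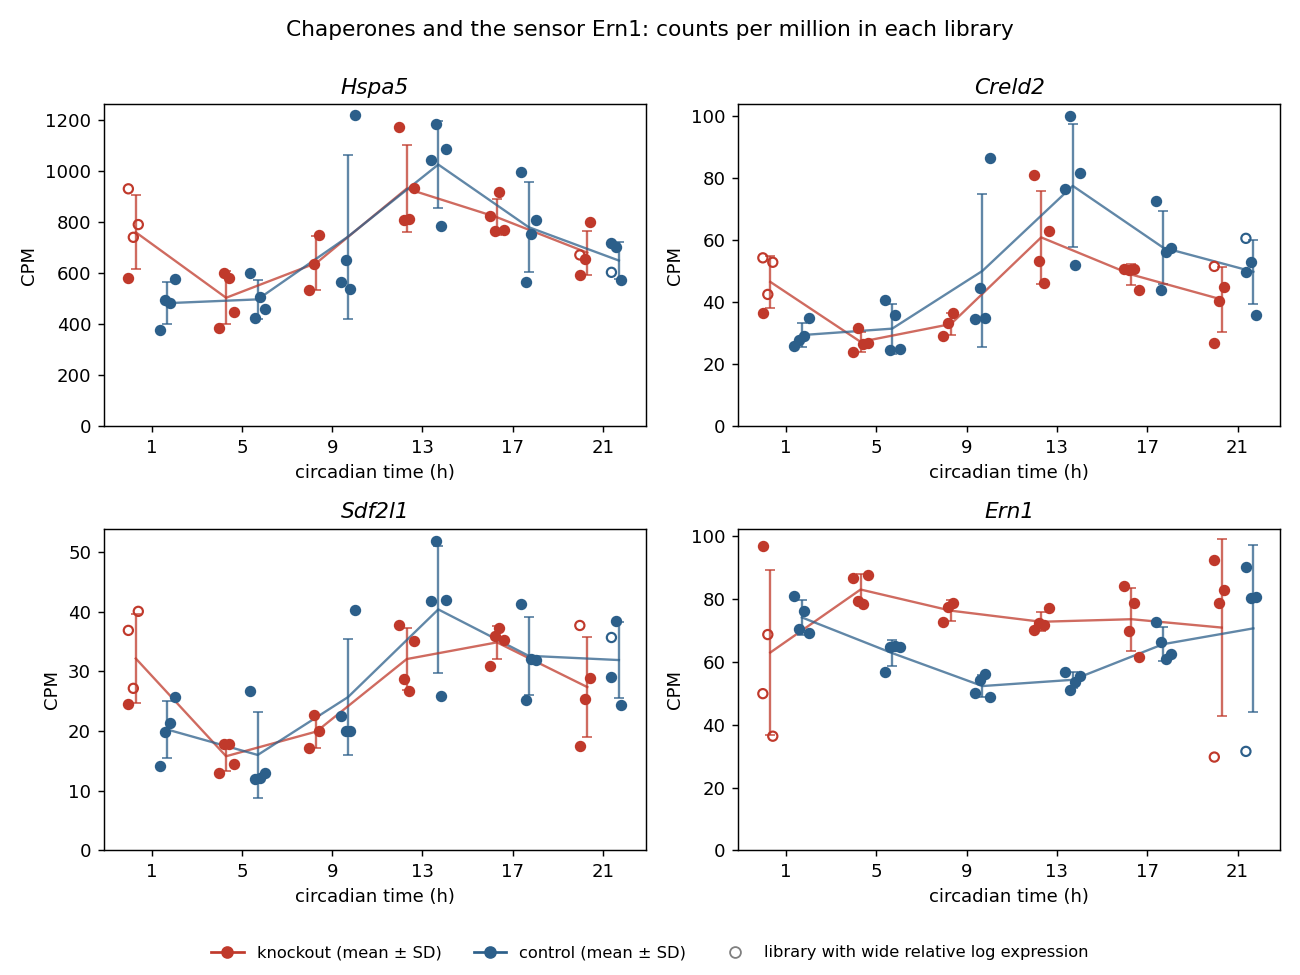
CPM (y axis) of the chaperones Hspa5, Creld2 and Sdf2l1 and of the sensor Ern1 in each library by circadian time (x axis), knockout in red left of control in blue, with group mean ± SD. The chaperones share a high control CT9 library, whereas Ern1 at CT5, CT9 and CT13 is higher in every knockout library and its open points at CT21 are the lowest there.

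The 2 rhythms that differed were those of Herpud1 and Trib3. Herpud1 had an amplitude of 0.27 in knockout (SE 0.07, edgeR adjusted p = 0.014, peak CT14.3) and 0.66 in control (SE 0.07, 6.6e-10, peak CT12.2), and the difference passed (edgeR adjusted p = 0.014). Without the 5 libraries the amplitudes of Herpud1 were 0.43 in knockout and 0.65 in control and the difference did not pass (adjusted p = 0.241). Trib3 had an amplitude of 0.23 in knockout (SE 0.14, edgeR adjusted p = 0.431) and 0.71 in control (SE 0.12, 3.4e-05, peak CT10.1), and the difference passed (edgeR adjusted p = 0.0036). For Trib3 it also passed without the 5 libraries (0.09 in knockout, 0.78 in control, adjusted p = 0.017). The control peak of Trib3 came before those of the chaperones, and the lowest knockout group mean, 4.27 ± 0.84 CPM (SD, n = 3), fell at CT9, where control was highest, at 15.7 ± 4.88 CPM (SD, n = 4).

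**Figure D5:**
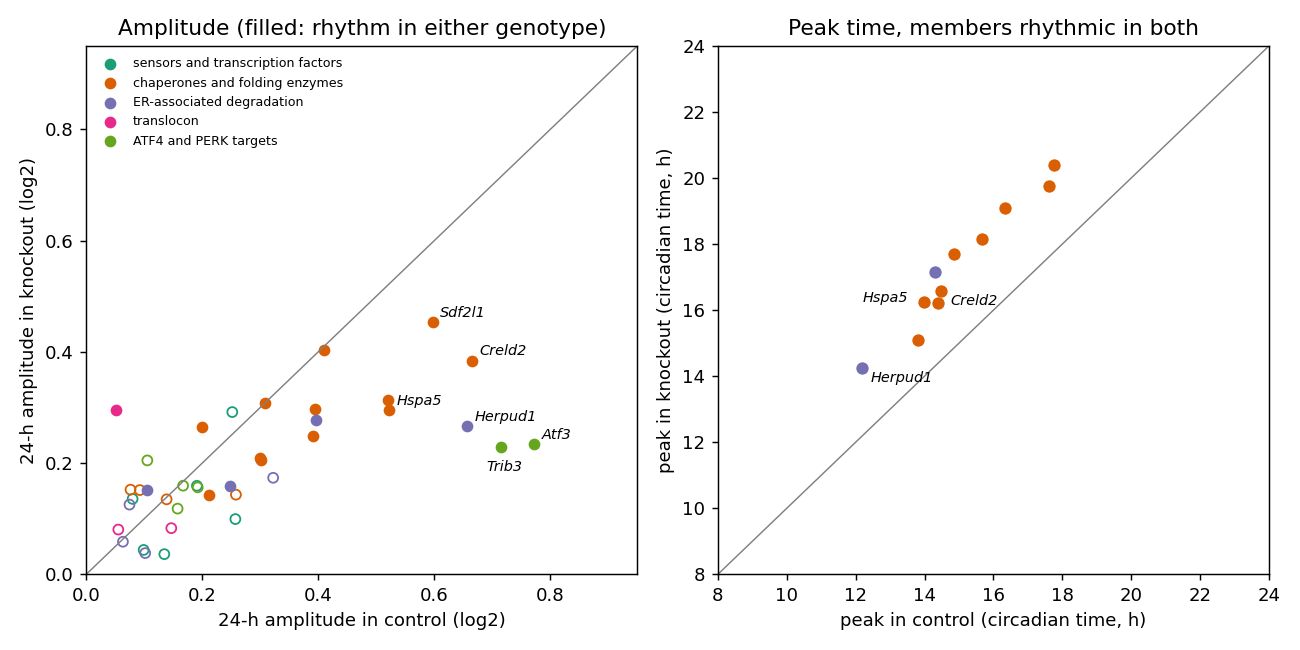
Left, fitted 24-h amplitude (log2) in knockout (y axis) and control (x axis) of the 39 tested members, filled where rhythmic in either genotype. Right, peak time in knockout (y axis) and control (x axis) of the 11 members rhythmic in both, all above the line of equal peaks by 1.29 to 2.87 h.

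Among the sensors and factors, 0 of 6 passed the edgeR test over all times (2 at an unadjusted p under 0.05, and 0 by DESeq2 and limma-voom). At single times 0 passed by edgeR and DESeq2, and limma-voom called 1 at CT1. In the edgeR fit 0 were rhythmic in knockout (1 unadjusted) and 0 in control (3 unadjusted), where 3 in each genotype passed without the 5 libraries. Xbp1 was 242 to 348 CPM in knockout libraries (median 276) and 230 to 367 CPM in control libraries (median 280), and Atf4 was 144 to 299 CPM in knockout (median 181) and 162 to 262 CPM in control (median 187). Ern1 (IRE1α, chromosome 11, positions 106394650 to 106487852, minus strand), the kinase and endonuclease that splices Xbp1, was chosen after its values were seen. At CT5 Ern1 was 86.8, 79.3, 78.5 and 87.8 CPM in knockout and 56.8, 64.6, 65.2 and 64.8 CPM in control. At CT9 it was 72.7, 77.5 and 78.9 CPM in knockout and 50.3, 54.1, 56.2 and 48.8 CPM in control. At CT13 it was 70.1, 72.3, 71.8 and 77.1 CPM in knockout and 57.0, 51.1, 53.6 and 55.7 CPM in control. Every knockout library was above every control library at these 3 times.

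The log2 fold change of Ern1 over all times was 0.22 (SE 0.09, edgeR adjusted p = 0.083). Without the 5 libraries it was 0.32 (SE 0.04, adjusted p = 3.5e-08), and Ern1 then passed at CT5 (0.39, SE 0.08, 0.0055), CT9 (0.55, SE 0.09, 3.2e-05) and CT13 (0.42, SE 0.08, 0.00072). Its rhythm then differed as well (adjusted p = 0.017), with amplitudes of 0.16 in knockout (SE 0.04, peak CT1.08) and 0.33 in control (SE 0.03, peak CT22.4). Among the 5, knockout CT1 replicates 1, 2 and 3 had 49.9, 68.8 and 36.4 CPM of Ern1, where replicate 4 had 97.1 CPM and control CT1 had 69.2 to 81.1 CPM. Knockout CT21 replicate 4 had 29.7 CPM and control CT21 replicate 1 had 31.6 CPM of Ern1, where the other CT21 libraries had 78.9 to 92.4 CPM in knockout and 80.3 to 90.2 CPM in control. The paralog Ern2 (IRE1β), known from mucus-producing epithelium, did not pass (−0.18, SE 0.09, edgeR adjusted p = 0.156), nor did Eif2ak3 (PERK; −0.13, SE 0.07, 0.140) or Atf6 (−0.03, SE 0.06, 0.791). When the 5 libraries were left out, Ern2 had −0.09, Eif2ak3 −0.10 and Atf6 0.02, and none of these passed.

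At CT1 alone, 21.0% of all tested genes were called in either direction (1998 of 15646 rose and 1289 fell). Of the 39 tested members 8 were called, close to that share in either direction. Over all genes the calls went both ways, whereas all 8 members called rose in the knockout and 0 fell. Of these, 6 were chaperones (Hspa5 0.66, P4hb 0.59, Sdf2l1 0.67, Creld2 0.66, the secreted stress protein Manf 0.67 and Calr 0.49 on the log2 scale) and the others were the degradation gene Derl1 (0.32) and the translocon subunit Sec61b (0.79). Without the 5 libraries 0 members passed at CT1 by edgeR, where 0.231% of genes did and knockout CT1 kept 1 library, with a median log2 fold change of 0.13 over the 16 chaperones, against 0.33 with all libraries. Sec61b was 78.9, 89.2, 80.2 and 46.1 CPM in knockout at CT1, the last being the library that was kept, and 35.8, 44.8, 45.1 and 44.3 CPM in control at CT1. At an unadjusted p under 0.05 the count without the 5 libraries was 2. With all libraries DESeq2 called 8 and limma-voom 9. The count of 8 fell to 3 without knockout CT1 replicate 1, to 3 without control CT1 replicate 1, and stood at 14 without knockout CT1 replicate 4.

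At the other times Herpud1 and Trib3 were the members called: both at CT5 (0.901% of all genes called), CT9 (4.01%) and CT13 (3.48%), Herpud1 alone at CT17 (2.23%), and 0 at CT21 (1.45%; 4 at an unadjusted p under 0.05, 1 by DESeq2, which was P4hb, and 0 by limma-voom). The chaperones had a median log2 fold change of −0.24 at CT9 and −0.14 at CT13, against −0.0003 and −0.007 over all genes. At these times 1 and 2 of the 16 were above 0, and 0 passed the edgeR test (lowest adjusted p 0.223 and 0.315). At an unadjusted p under 0.05 there were 3 and 1, and DESeq2 and limma-voom called 0. The 16 share their libraries. At CT9, control replicate 4 was the highest of its group for 15 of them. Knockout CT9 replicate 2 was the lowest of its 3 for 15.

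Of the degradation genes apart from Herpud1 and Derl3, Syvn1 (HRD1), the ubiquitin ligase at the centre of the complex, had the widest rhythm. Its amplitude was 0.28 in knockout (SE 0.08, edgeR adjusted p = 0.040, peak CT17.1) and 0.40 in control (SE 0.08, 0.00097, peak CT14.3), and its level over all times did not pass (0.01, SE 0.08, 0.959). The knockout rhythm of Syvn1 passed in 39 of 47 fits that each left out 1 library. Sel1l, the adaptor of Syvn1, had an amplitude of 0.16 in knockout, which did not pass (edgeR adjusted p = 0.144), and a rhythm of 0.25 in control (0.0062). The amplitude of Sel1l without the 5 libraries was 0.05 in knockout (adjusted p = 0.731) and 0.21 in control (5.2e-05), and the difference did not pass (0.350). Derl1 had a rhythm in knockout (0.15, peak CT1.32) and none called in control. The amplitude of Derl1 without the 5 libraries was 0.06 in knockout and 0.11 in control. Edem1, Edem2 and Derl2 passed no test over all times or for rhythm.

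Of the 3 translocon genes, Sec61b had a rhythm in knockout (0.29, SE 0.09, edgeR adjusted p = 0.044, peak CT22.6) that did not pass without the 5 libraries (0.13, adjusted p = 0.243). Sec61a1, the pore, and Ssr1, a subunit of the associated TRAP complex, passed no test.

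The other tested ATF4 and PERK targets passed neither over all times nor at a single time. Ddit3 (CHOP) had a log2 fold change of 0.00 (SE 0.09, edgeR adjusted p = 0.982), Asns, the asparagine synthetase, −0.02 (SE 0.06, 0.877), Sesn2 0.06 (SE 0.07, 0.560), and Ppp1r15a (GADD34, which directs phosphatase to eIF2α) 0.06 (SE 0.09, 0.675). Atf3, a stress-induced repressor, had −0.13 (SE 0.16, 0.611), and −0.03 (SE 0.18, adjusted p = 0.926) without the 5 libraries. At CT9 Atf3 was 13.2, 15.6 and 30.7 CPM in knockout and 11.0, 20.0, 6.07 and 8.59 CPM in control. At CT21 it was 28.7, 21.4, 16.5 and 28.6 CPM in knockout and 29.5, 30.1, 38.8 and 65.8 CPM in control, so its libraries spread widely within groups. The amplitude of Atf3 was 0.23 in knockout (SE 0.17, edgeR adjusted p = 0.543) and 0.77 in control (SE 0.16, 0.0012, peak CT19.3), the largest among the 39 in control, and the difference did not pass (0.414). The amplitude of Atf3 without the 5 libraries was 0.14 in knockout (adjusted p = 0.856) and 0.79 in control (0.00099).

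Other genes of the same pathways were also examined, to be read against the 12.4% of all genes that rose and the 11.3% that fell over all times. In 20 further chaperones and folding genes 3 rose and 2 fell, among them Erp29 (0.23), Ppib (0.14), Dnajc10 (−0.16) and Txndc5 (−0.12). Among further degradation genes Selenos rose (0.13). In 24 genes of the translocon, signal peptidase and oligosaccharyltransferase 2 rose, Dad1 (0.21) and Spcs2 (0.18), and 1 fell, Sec11c (−0.15). Of 10 other membrane stress factors and their proteases 2 rose, Mbtps1 (0.18), the site-1 protease that cuts ATF6, and Rtcb (0.18), the ligase that joins spliced Xbp1. Of 17 ER-to-Golgi genes 3 rose, Kdelr3 (0.46, SE 0.11, edgeR adjusted p = 0.00096), Kdelr1 (0.17) and Tmed10 (0.12), where the KDEL receptors return chaperones to the ER.

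The wider ATF4 list held 23 tested genes, of which 1 rose and 3 fell. Aldh18a1, the first enzyme of proline synthesis, rose by 0.66 (SE 0.04, edgeR adjusted p = 6.7e-16). Nupr1 (−0.34), Psat1 (−0.33), an enzyme of serine synthesis, and Stc2 (−0.31) fell. Of 12 aminoacyl-tRNA synthetases 2 rose, Nars (0.23) and Sars (0.19), and of 8 genes of the eIF2 kinases, phosphatase and exchange factor 2 rose, Eif2b5 (0.15) and Eif2ak1 (0.11), and 1 fell, Ppp1r15b (−0.16). Trib3 and Aldh18a1 thus changed in opposite directions within the ATF4 lists.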

How the data were processed

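RNA sequencing of 47 jejunum libraries (23 knockout, 24 control) was used, and 1 labelled knockout CT9 library without a column was not analysed here. The deposited table holds unscaled read counts per gene, 1 column a library. The kits, per the labels' protocols, were NucleoSpin for RNA and TruSeq Stranded mRNA for libraries. The submitters' processing notes name the mm10 build and the tools featureCounts 1.4.6, STAR 2.7.5c, DESeq2 1.22.0, SAMtools 1.3.1, Trimmomatic 0.39 and FastQC 0.11.5. Strand setting and handling of multiply mapped reads were not given in the sources used here, so the values of 12 members whose exons overlap another gene, and of Calr, which has a named pseudogene, are uncertain. Of the IDs, 54349 matched GENCODE with their version, 792 without it and 260 not at all.

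The analysis used edgeR 4.0.16 under R 4.3.3: low counts were removed by filterByExpr over 12 groups (at least 10 counts, 15 in total), followed by TMM scaling, a robust quasi-likelihood fit of group means (35 residual degrees of freedom) and a fit with a cosine and sine of 24 h per genotype (41). Adjusted p-values are Benjamini-Hochberg over all 15646 genes, with a threshold of 0.05. The standard error (SE) of an amplitude takes cosine and sine as uncorrelated. The code was tested on simulated data. Alternatives were RLE and upper-quartile scaling, 2 other filters, DESeq2 1.42.0, limma-voom 3.58.1, leaving out libraries, fits within a time, and an F test of time means. A floor of 3 counts was 0.434 to 0.692 counts per M of a library total, and covers counting error only.

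Members and lists were chosen with earlier results of these data known. Values are given, in each role, for up to 4 members called over all times, for the 2 with the widest called rhythm and for any member whose rhythm differed. Hspa5 and Ern1 were added after their values were seen, and some values of other members outside this rule, such as Sel1l, are also given. From the other pathway lists up to 4 called genes are named, and a result from the degradation list is not reported here. Replicate numbers were given in accession order and pair nothing.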

Additional observations from a re-analysis of the deposited data

Results flagged for a closer look

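In 110 groups of 4 libraries, over 10 members, a single library stood apart from the other 3 in 8 cases, its gap to the nearest library being more of the group's range than the critical value of Dixon's test. That test is built to mark about 1 in 20 groups by chance when values are normal and groups independent, and these members share their libraries. Creld2 had 43.8 CPM in knockout CT17 replicate 4, below the rest of its group. Sdf2l1 had 26.8 CPM in control CT5 replicate 1 and 40.2 CPM in control CT9 replicate 4, each above the rest. P4hb had 2447 CPM in control CT13 replicate 1 and Sec61b had 35.8 CPM in control CT1 replicate 1, each below the rest. Atf3 had 41.8 CPM in control CT17 replicate 2, above the rest. Ern1 had 56.8 CPM in control CT5 replicate 1 and 31.6 CPM in control CT21 replicate 1, each below the rest, and the second is among the 5 libraries with wide relative log expression.

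Between the genotypes, the 24-h rhythm differed for Herpud1 (edgeR adjusted p = 0.014) and Trib3 (edgeR adjusted p = 0.0036), as described above. The difference for Herpud1 did not pass without the 5 libraries (amplitudes 0.43 in knockout and 0.65 in control).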

How the results depend on the processing

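The 3 falls (Herpud1, Derl3 and Trib3) and the rise of P4hb kept their direction and passed under every alternative that gave them a value, the fits that each left out 1 library included. Values that had not passed could change sign, as Herpud1 did at CT1 without the 5 libraries. Without the 5 libraries 2 members rose and 0 were called at CT1, where knockout kept 1 library, assumed to vary like the other groups. With no filter on low counts, 5 were called at CT1, 1 at CT5, and 6 were rhythmic in knockout. DESeq2 called 1 at CT21, limma-voom called 1 at CT5, and a fit of the 2 groups of a time alone called 2 at CT1. The cause was not tested. Over the 47 fits without 1 library, 1 to 2 members rose and 3 to 4 fell over all times. At single times 3 to 14 were called at CT1, 0 to 2 at CT5, 2 at CT9, 1 to 2 at CT13, 0 to 1 at CT17 and 0 to 1 at CT21. In the same fits 8 to 18 members were rhythmic in knockout and 16 to 19 in control, and the rhythm of 2 differed. With the 5 libraries left out together, the difference in the rhythm of Herpud1 did not pass. Among the genes outside the 40, Eif2ak1 (adjusted p up to 0.143), Ppib (0.151), Stc2 (0.091), Sars (0.154), Eif2b5 (0.114), Selenos (0.105) and others with small changes were not called under some settings. In the 47 fits that each left out 1 library, Eif2ak1 passed in 14, Ppib in 32 and Dad1 in 38. No paired analysis was possible because the replicate numbers came from accession order. Depth limits Chac1, Derl3, Ppp1r15a and Trib3 most, which had the fewest counts.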
